A study of Caenorhabditis elegans with 2 samples.

Results

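The cytochrome P450 genes of Caenorhabditis elegans were examined for binding of the Schnurri homolog SMA-9, a DNA-binding protein with zinc fingers that functions with the Smads of the worm's BMP-like pathway. The members were the protein-coding genes whose symbol starts with cyp-, of which there were 74 among the 19973 protein-coding genes on the nuclear chromosomes. The rule used the symbol alone and no measured value, but the members were chosen with earlier results of these data known. The deposited lists hold peaks from chromatin immunoprecipitation followed by sequencing (ChIP-seq) with an antibody against GFP. All samples formed 1 group of 2 biological replicates from the strain LW1254, which has the unc-119(ed4) background and carries the integrated transgene jjIs1254 with sma-9C2::gfp and the rescue marker unc-119(+). Hermaphrodites were grown for 22 hours after synchronization by L1 starvation, reached the L2 stage and were processed as whole animals without any labelled treatment. A further label describes the tag as a GFP-FLAG fusion at the C-terminus. The promoter of the transgene is not given in the sources used here. There was no untagged or untreated group, and the control experiment was not analysed here, so background at these genes was not measured separately. Many cells of all types were pooled in each replicate, and occupancy in few cells cannot be told apart from weak occupancy in many.

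Cytochrome P450 enzymes are heme-containing monooxygenases that use molecular oxygen and electrons from a partner reductase to oxidize small molecules. In animals they act on foreign compounds, steroids and fatty acids, and in the worm several families are known for their induction by xenobiotics in the intestine. The nematode families expanded by local duplication, so that close paralogs stand side by side in gene arrays.

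A gene was counted as bound when the summit of a peak from the authors' reproducible list lay within 1000 bp of any annotated 5' end of its transcripts. That list was thresholded on IDR, the irreproducible discovery rate, which scores how well the ranking of peaks repeats across replicates. By this rule 24 of the 74 P450 genes were bound, a share of 32.4%, with a 95% Wilson interval of 22.9% to 43.7%. The share over all protein-coding genes was 20.2%, or 4036 genes. Among the 10896 genes with a gene-class symbol, the background was 24.2%. The interval of the P450 genes includes this 24.2%, while the 20.2% lies below it. The intervals cover counting error over genes only. Neighbouring genes share summits and genes are not replicates, so the shares are a description and were not tested.

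The windows shown here reach 50 bp to either side of the summit, come from the RefSeq genome with coordinates on ce11 (WBcel235), and are read 5' to 3' on the strand of the gene named. The first windows belong to the members with the strongest summits upstream of their 5' end. No letters are in capitals because neither window held a searched motif.
cyp-13A8, chrII:9807681-9807781, minus strand: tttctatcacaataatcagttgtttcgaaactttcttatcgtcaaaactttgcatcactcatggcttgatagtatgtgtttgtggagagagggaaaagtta
cyp-33A1, chrV:7681523-7681623, minus strand: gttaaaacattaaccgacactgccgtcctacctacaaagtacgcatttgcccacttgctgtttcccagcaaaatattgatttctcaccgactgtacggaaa

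The next windows, from the CYP33C and CYP34A subfamilies, were chosen after their values were seen, to show pyrimidine tracts. Capitals mark runs of at least 6 bases of C or T.
cyp-33C4, chrV:2236023-2236123, plus strand: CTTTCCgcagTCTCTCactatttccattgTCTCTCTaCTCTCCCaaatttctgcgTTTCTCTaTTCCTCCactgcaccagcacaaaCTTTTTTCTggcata
cyp-33C5, chrV:2244892-2244992, plus strand: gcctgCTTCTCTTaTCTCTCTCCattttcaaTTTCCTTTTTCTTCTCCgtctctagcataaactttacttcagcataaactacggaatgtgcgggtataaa
cyp-33C7, chrV:2250285-2250385, plus strand: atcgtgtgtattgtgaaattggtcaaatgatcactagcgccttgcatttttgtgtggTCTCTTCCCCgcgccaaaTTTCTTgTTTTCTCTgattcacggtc
cyp-34A8, chrV:3967898-3967998, minus strand: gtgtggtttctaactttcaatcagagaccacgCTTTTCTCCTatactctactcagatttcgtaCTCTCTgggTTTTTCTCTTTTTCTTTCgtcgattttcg

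The next windows hold the GATA-factor sequence TGATAA on either strand, a sequence known to be bound by intestinal GATA factors. Capitals mark TGATAA or its reverse complement, and in the cyp-34A9 window also the reverse complement of GTCTG, the core of a Smad-binding element.
cyp-25A2, chrIII:3834988-3835088, plus strand: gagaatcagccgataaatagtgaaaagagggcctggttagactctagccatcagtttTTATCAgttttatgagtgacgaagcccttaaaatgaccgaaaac
cyp-34A9, chrV:3970589-3970689, minus strand: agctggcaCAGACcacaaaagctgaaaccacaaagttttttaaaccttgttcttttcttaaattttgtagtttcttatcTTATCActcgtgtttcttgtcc
cyp-35C1, chrV:13898494-13898594, minus strand: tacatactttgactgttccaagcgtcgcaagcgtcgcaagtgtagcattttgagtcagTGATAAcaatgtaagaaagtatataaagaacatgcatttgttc
cyp-13B1, chrX:13409734-13409834, minus strand: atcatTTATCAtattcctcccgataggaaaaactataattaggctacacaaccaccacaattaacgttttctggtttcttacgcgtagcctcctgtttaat

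The last windows have their summit inside an annotated tRNA gene. Capitals mark the bases of the tRNA gene.
cyp-14A4, chrX:13283647-13283747, minus strand: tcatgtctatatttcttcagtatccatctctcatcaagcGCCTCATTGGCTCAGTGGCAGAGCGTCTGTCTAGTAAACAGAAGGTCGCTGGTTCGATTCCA
cyp-43A1, chrX:5713622-5713722, plus strand: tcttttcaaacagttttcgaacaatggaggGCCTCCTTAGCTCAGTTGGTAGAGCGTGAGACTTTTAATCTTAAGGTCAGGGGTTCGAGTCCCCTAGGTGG

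**Figure D1:**
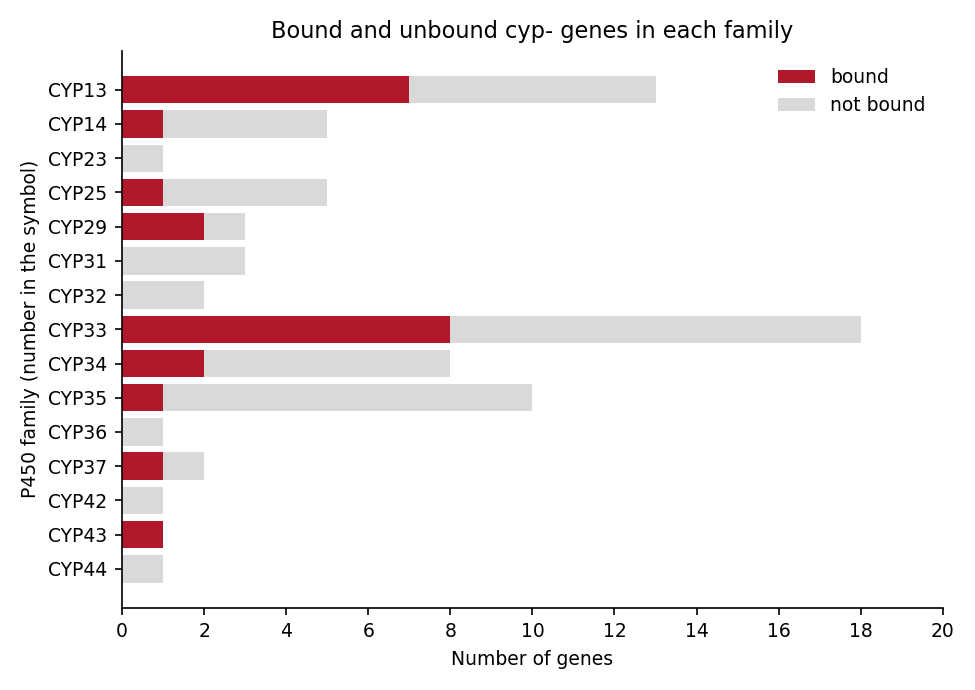
Number of P450 genes (horizontal axis) in each numbered family (vertical axis), with bound genes in red and genes not bound in grey. CYP33 with 8 of 18 and CYP13 with 7 of 13 hold most of the bound genes, and CYP35 has 1 of 10.

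Bound genes were found in 9 of the 15 numbered families, as the counts of bound and unbound genes by family show. CYP13 and CYP33, the families with the most genes, had 7 of 13 and 8 of 18 bound. CYP29 had 2 of 3, CYP34 had 2 of 8, and CYP14, CYP25, CYP35, CYP37 and CYP43 had 1 bound gene each. No gene was bound in CYP23, CYP31, CYP32, CYP36, CYP42 or CYP44, which have 9 genes in all. CYP31 holds the enzymes needed to build the eggshell, and CYP44A1 is the mitochondrial P450 of the worm. The 6 cyp- pseudogenes in the RefSeq annotation had no summit within the window either. The steroid-hormone enzyme gene daf-9, a P450 that does not carry the cyp- symbol and makes dafachronic acids, was also not bound.

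The CYP13A genes had the strongest summits of the family. The strongest belonged to cyp-13A2 (chromosome II, 9783384 to 9787629, minus strand), where a peak at 9787422 to 9787758 had a signal of 328.9 and rank 556 among the 7065 IDR peaks. The signal is the authors' own value in the caller's units, and it is used only to rank peaks within a list. Its summit lay in the 5' UTR, 83 bp inside the 5' end. This summit fell in a call of rank 863 in replicate 1 and rank 377 in replicate 2. cyp-13A8 followed with a signal of 286.8, rank 733, at 9807652 to 9807806, and its summit was 162 bp upstream. Its call had rank 886 in replicate 1 and 774 in replicate 2. These were the only members among the 1000 strongest IDR peaks, against 731 of the 4036 bound genes overall.

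The other bound CYP13 genes had weaker summits, with IDR ranks from 2265 to 7002. The signal was 148.7 at cyp-13A5, 116.1 at cyp-13A1, 71.0 at cyp-13A4, 63.9 at cyp-13A12 and 62.4 at cyp-13B1. The last of these had rank 7002, near the end of the list, whose lowest signal was 62.0. cyp-13A12 is known from work on behaviour after reoxygenation, and its call had rank 8225 in replicate 1 and 7368 in replicate 2. cyp-13A4 differed more between the replicates, with rank 10372 in replicate 1 and 5197 in replicate 2.

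Among the CYP33 genes the strongest summit was at cyp-33A1, with a signal of 205.0 at chromosome V, 7681526 to 7681624, 114 bp upstream. It had rank 1389 in the IDR list, 1897 in replicate 1 and 1083 in replicate 2. The CYP33C subfamily had 6 of 11 genes bound. cyp-33C5 had a signal of 173.8 with ranks 1920 and 2086 in replicates 1 and 2, and cyp-33C8 had 159.3 with ranks 1891 and 2888. The signal was 104.3 at cyp-33C9 and 85.7 at cyp-33C4. cyp-33C6 and cyp-33C7 are transcribed away from each other and share 1 summit of signal 139.2, which was 205 bp upstream of cyp-33C7 and 925 bp upstream of cyp-33C6. The call of cyp-33C6 is the one closest to the limit of 1000 bp. The nearest members outside it were cyp-34A7 at 1191 bp and cyp-34A6 at 1289 bp. cyp-33E2, whose product makes eicosanoids from a polyunsaturated fatty acid, had a weak summit of 69.6 at 8 bp inside its 5' end, with ranks 7863 and 5681 in the replicates.

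**Figure D2:**
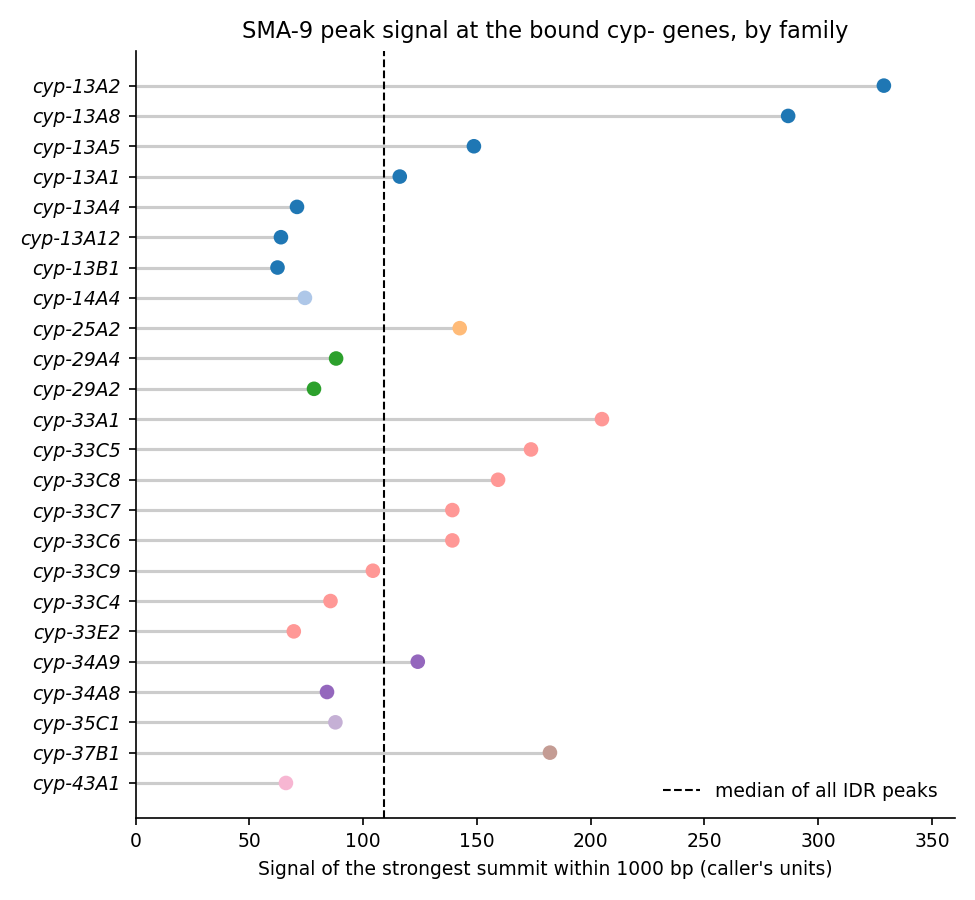
Signal of the strongest summit within 1000 bp of a 5' end (horizontal axis, caller's units) for each of the 24 bound genes (vertical axis), with colours for the families. The dashed line is the median of all IDR peaks, 109.1, and 12 of the 24 genes lie above it, with cyp-13A2 at 328.9 and cyp-13B1 at 62.4 as the extremes.

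The remaining bound genes came from smaller families. cyp-37B1 had a signal of 182.1 with its summit 4 bp upstream of the 5' end, and ranks 2263 and 1593 in replicates 1 and 2. cyp-25A2 had 142.5, and cyp-34A9, which is known as a gene regulated through the insulin pathway and DAF-16, had 124.0. The neighbouring cyp-34A8 had 84.1, with ranks 3773 and 8428 in the replicates. cyp-29A4 had 88.1 at 412 bp upstream, inside the noncoding RNA gene T06E4.16, and cyp-29A2 had 78.4. cyp-35C1, from the xenobiotic-induced CYP35 family, had 87.8 and was 57 bp upstream. The median signal of the bound genes was 110.2, with a range of 62.4 to 328.9, against a median of 122.2 over all 4036 bound genes. 12 genes, or 50%, exceeded the median of the IDR list, against 58.2% of all bound genes. A signal above 200 was found at 3 members, cyp-13A2, cyp-13A8 and cyp-33A1, against 1033 of all 4036 bound genes.

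The 24 bound genes rested on 24 distinct summits, since cyp-43A1 had 2 summits and cyp-33C6 shared that of cyp-33C7. The summit of cyp-34A8 also lay in the window of a 5' end of cyp-34A9. For all 24 summits the nearest annotated 5' end of a protein-coding gene belonged to a P450 gene. The summits of cyp-13A1, cyp-35C1, cyp-33E2 and cyp-13B1 also lay in the windows of T10B9.14, oac-3, F42A9.17 and C29F7.1, respectively. The cyp-13B1 summit was 141 bp from the 5' end of cyp-13B1 and 152 bp from that of C29F7.1. In total 6 of the 24 (25%) lay in windows of more than 1 gene. The share was 21% over IDR summits within 1000 bp of a 5' end. At cyp-14A4 and at the weaker summit of cyp-43A1 the summit lay inside a tRNA gene, whose own end was nearer. Summits lay close to the 5' ends. The median distance was 90 bp, with a range of 4 to 925 bp, against 261.5 bp over all bound genes. The summit was upstream for 21 genes, or 87.5%, against 83.8% of all bound genes. It lay within 250 bp upstream for 19 genes, or 79.2%, against 42.6% of all bound genes. The limit of 250 bp was chosen after the values were seen. Genes with 1 annotated 5' end gave a like picture, with 16 of 19 (84.2%) against 44.4%. In such genes the median distances were 97 bp and 263 bp. The gap to the next gene upstream had a median of 720 bp for bound P450 genes and 915 bp for all bound genes, and its part in the distances was not tested.

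**Figure D3:**
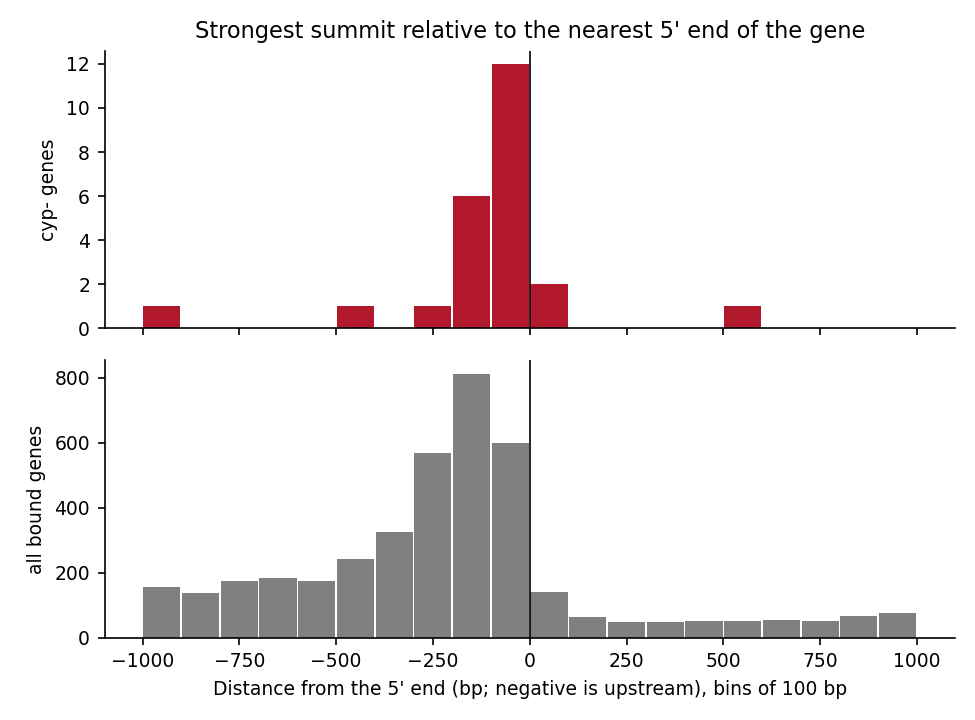
Number of genes (vertical axes) by distance of the strongest summit from the nearest annotated 5' end (horizontal axis, bp, negative is upstream) in bins of 100 bp, for the bound P450 genes (top) and all bound genes (bottom). The tallest P450 bin is the 100 bp just upstream, with 12 genes, and the tallest bin over all bound genes, with 813, is the next one upstream.

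The bound share of the P450 genes varied with position, as did that of all genes. In the centres of the autosomes 10 of 23 were bound, or 43.5%, against 26.1% of all genes there. In the outer parts 11 of 44 were bound, or 25%, against 15.1%. On chromosome V, which carries 41 of the 74, the count was 13, or 31.7%, against 18.2%. Genes with 1 annotated 5' end had 19 of 62 bound, or 30.6%, against 16.3%. Genes with more than 1 had 5 of 12, or 41.7%, against 30.4%.

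Of the 74 genes, 44 stood in 13 arrays, here runs of P450 genes with at most 1 other gene between neighbours. In arrays 15 genes were bound (34.1%), and outside them 9 of 30 (30%). The CYP13A array on chromosome II spans 28.4 kb and had 5 of 8 genes bound by 5 summits. The array of cyp-33C4, cyp-33C3, cyp-33C5, cyp-33C6 and cyp-33C7 spans 16.5 kb and had 4 of 5 genes bound by 3 summits. The array of cyp-34A5 to cyp-34A10 had 2 of 6 bound, and that of cyp-14A1 to cyp-14A4 had 1 of 4. The array of cyp-35A5, cyp-35B1, cyp-35B2 and cyp-35B3 spans 10.7 kb and had 0 of 4 bound.

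Within arrays a summit upstream of a member can also lie past the 3' end of the next, and how common this is over all genes was not measured. The summit of cyp-33C5 lay 77 bp past the 3' end of cyp-33C3, that of cyp-34A9 lay 63 bp past cyp-34A10, and that of cyp-34A8 lay 186 bp past cyp-34A9. In the CYP13A array the summit of cyp-13A5 lay 274 bp past the 3' end of cyp-13A6, and that of cyp-13A4 lay 440 bp past cyp-13A5. In smaller arrays the summit of cyp-25A2 lay 452 bp past cyp-25A1, and that of cyp-13A12 lay 437 bp past cyp-13A11. The nearest 5' end was that of the named member in each case. The peak lists carry no strand, so which of the adjoining genes a summit serves was not tested.

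**Figure D4:**
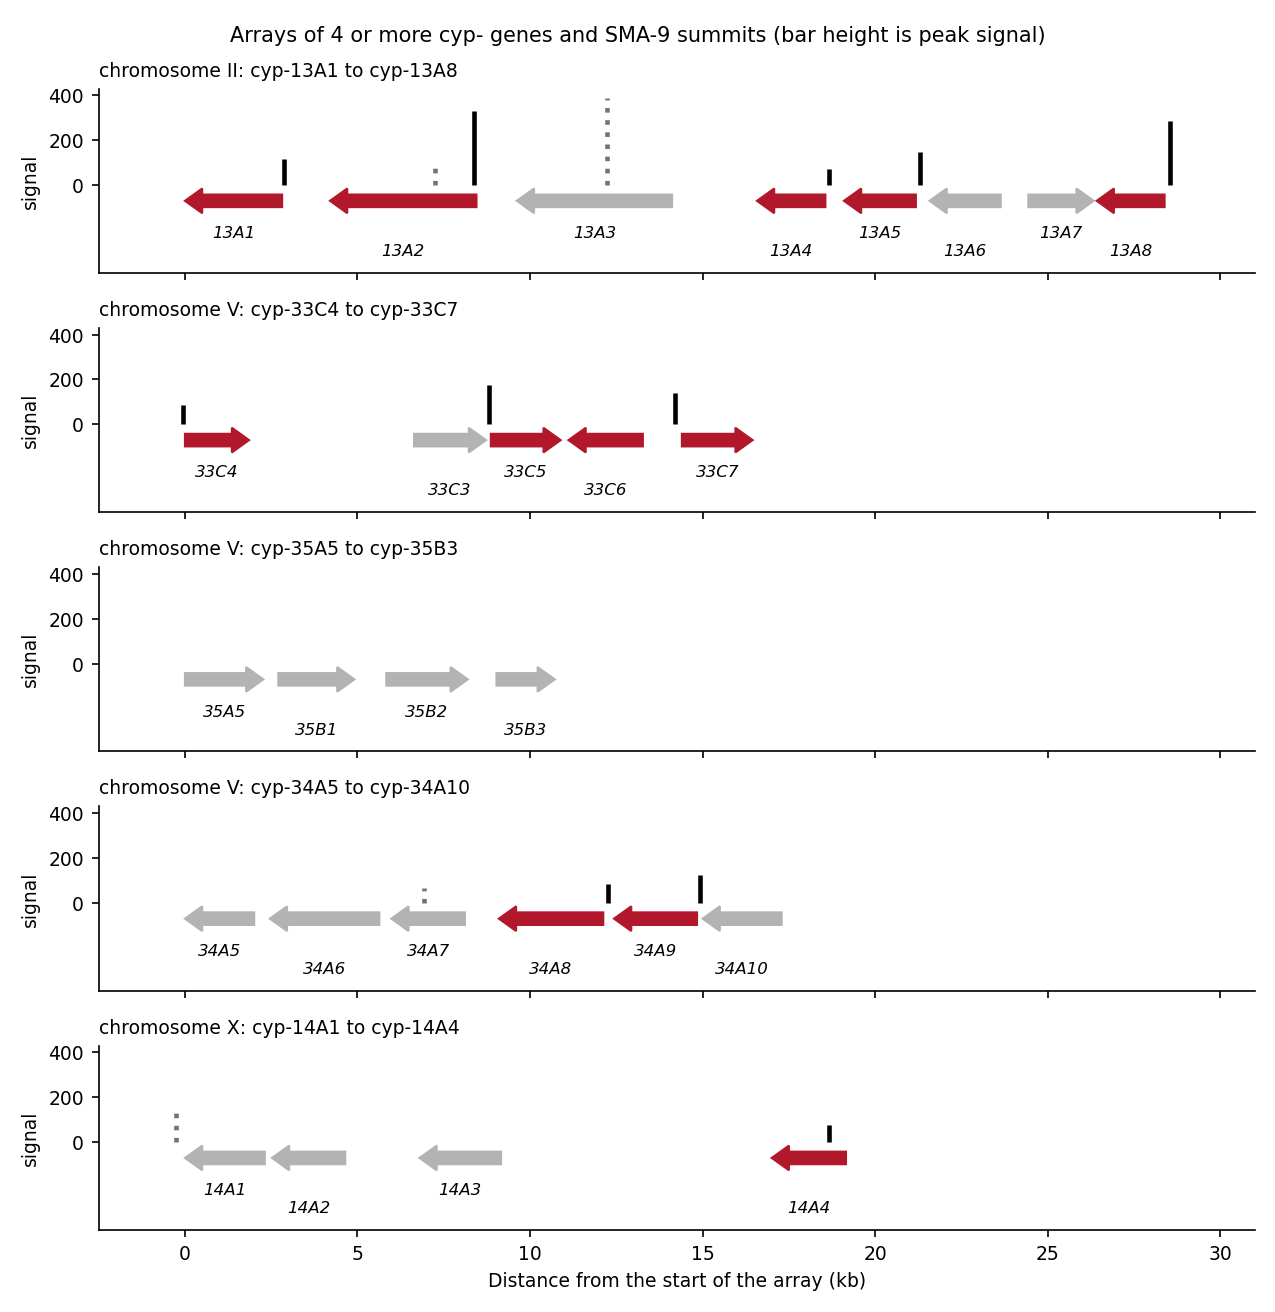
Arrays of at least 4 P450 genes, with distance from the start of the array in kb (horizontal axis) and peak signal in the caller's units (vertical axis). Arrows are genes in their direction of transcription, red where bound and grey where not, solid bars are summits counted for a member and dotted bars are summits that are not. The CYP13A array has 5 solid bars, the strongest at 328.9, and the CYP35A5 to CYP35B3 array has none.

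The CYP35 genes are known for strong induction by foreign compounds, and cyp-35A2 for a role in fat storage. Only cyp-35C1 was bound among the 10. The CYP35A genes had 0 of 5, the CYP35B genes 0 of 3, and cyp-35D1, which metabolizes the drug thiabendazole, was not bound. Of the 9 unbound genes, 7 had no IDR summit inside them or up to 3000 bp away. The exceptions were cyp-35A3, with a summit of 127.3 that lay 493 bp past its 3' end and 72 bp from the 5' end of K09D9.1, and cyp-35A4, with a summit of 75.3 at 1789 bp upstream. In the pooled list, which also holds calls that did not pass the IDR threshold, 2 of the 9 had a call in the window, cyp-35A2 with best rank 8822 and cyp-35D1 with best rank 17152, and 7 had none.

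Of the 50 unbound genes, 24 had an IDR summit inside them or up to 3000 bp away. In 4 it was inside the gene, in 6 upstream and in 15 past the 3' end, with cyp-13A3 counted both inside and past the end. Of the 24, 9 had a summit that was counted for a bound neighbour. The strongest was 546.7, rank 188 in the IDR list, 2005 bp upstream of cyp-14A5 at chromosome V, 5425140 to 5425403, over the long intergenic RNA linc-96. It had ranks 247 and 161 in the replicates. The summit of 385.6 in an intron of cyp-13A3, 1881 bp from the 5' end, was stronger than any at a bound P450 gene. It had ranks 410 and 473 in the replicates. cyp-36A1, which is known from work on HIF-1 and behaviour, had an intronic summit of 358.9 at 1431 bp, with ranks 1033 and 240.

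Other unbound genes had summits in coding exons, over noncoding RNA genes or nearer to another gene. The summit of 191.2 at 1483 bp upstream of cyp-37A1 lay in an intron of F01D5.10 over a snoRNA gene, and it had no call in replicate 1 and rank 990 in replicate 2. A summit of 111.3 lay in a coding exon of cyp-34A1 at 1771 bp. Another of 66.8 lay in a coding exon of cyp-34A7, in a peak over a snRNA gene. A summit of 119.6 that lay 2335 bp past the 3' end of cyp-23A1 was 106 bp from the 5' end of the muscle factor gene hlh-1. Summits of 150.9 and 92.0 past the 3' ends of cyp-14A1 and cyp-13B2 lay in peaks over tRNA genes. cyp-32A1 had a summit of 63.8 that was 71 bp from the 5' end of C26F1.1, and cyp-25A4 had 109.9 in an intron of brc-1. A window of 2000 bp in place of 1000 bp added cyp-13A3, cyp-34A1, cyp-34A6, cyp-34A7, cyp-35A4, cyp-36A1 and cyp-37A1 and brought the count to 31, against 27.6% of all genes. Within 1000 bp, 23 of the 50 had a call in the pooled list with best ranks of 7213 to 29040, and 27 had none. Over all 19973 genes, those bound by the rule included, 47.1% had a pooled call in the window. The like count for the P450 genes, bound ones included, was 47 of 74.

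Both replicates held a call at each of the 24 P450 summits, a share of 100% with a Wilson interval of 86.2% to 100%, against 95.2% over all IDR summits. Because the IDR list itself comes from these replicates, and their lists of 30000 and 29983 nuclear calls include background, this share is a description. Among the 7065 calls of highest signal in each replicate, the P450 summits were in both for 16 of 24 (66.7%, interval 46.7% to 82%), against 71.8% of all IDR summits. The plot of replicate ranks shows that the 8 others had IDR signals of 84.1 or lower. With the 7065 strongest calls of 1 replicate in place of the IDR list, 18 of the 24 genes were bound in each of the replicates. cyp-43A1 is among them through different summits, the 1 at 47 bp in replicate 1 (rank 6292, against 8833 in replicate 2) and the 1 inside the tRNA gene in replicate 2 (rank 4406, against 11264 in replicate 1). These 18 include cyp-13A2, cyp-13A8, cyp-33A1, cyp-37B1 and all 6 bound CYP33C genes. The genes not among them were cyp-13A4, cyp-13A12, cyp-13B1, cyp-14A4, cyp-33E2 and cyp-34A8.

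**Figure D5:**
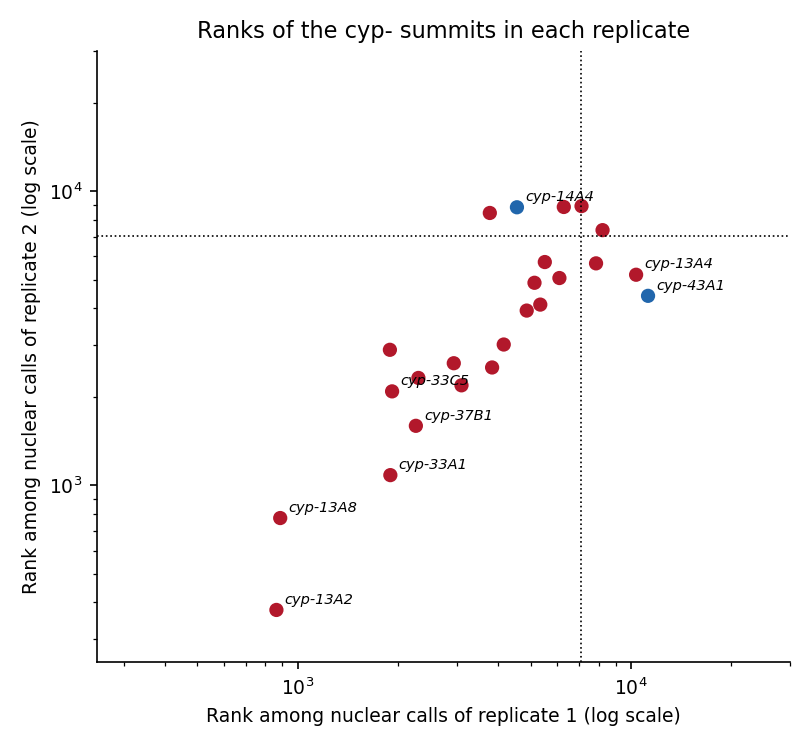
Rank of the call at each of the 24 P450 summits in replicate 1 (horizontal axis, log scale) and replicate 2 (vertical axis, log scale), with 1 the strongest. Dotted lines mark rank 7065, blue points are summits inside tRNA genes, and cyp-13A2 with ranks 863 and 377 is the strongest in both.

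The sequence windows at the summits varied among the members. Over all 276 pairs of windows, within and across families, the median identity was 45.8%, from 37.6% to 59.1%. The highest value was for windows of cyp-14A4 and cyp-43A1, which are of different families. Pairs within the CYP33C subfamily went from 39.4% (cyp-33C5 with cyp-33C8) to 56.8% (cyp-33C5 with cyp-33C4). No pair was near-identical, and windows outside the P450 genes were not compared. The letters TGATAA, searched on both strands, were in 5 of 24 windows (20.8%), against 20.3% of all IDR windows. GTCTG was in 5 (20.8%) against 18.6%, and GCGTG, the core of the element of the aryl hydrocarbon receptor, was in 3 (12.5%) against 15.6%. CACGTG, an E-box, was in none, which with 24 windows allows a share of up to 12.5%, against 7.36% of all IDR windows. No motif contains another. The windows with TGATAA were those of cyp-25A2, cyp-34A9, cyp-35C1 and cyp-13B1, printed above, and of cyp-43A1, which held 2 copies at the stronger of its summits. A match is a description of letters and not a site, and no match says only that these letters are not in the window.

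The windows were richer in A and T than those of all promoter summits, with a median GC share of 38.1% against 43.6% over 3897 summits within 1000 bp of a 5' end. On the strand of the gene, the median share of C and T was 55% against 53.5%, and the median number of bases in runs of at least 6 was 13 against 12, both close to the promoter summits as a whole. C and T made up more than 60% of the bases in 9 of 24 windows (37.5%), against 26.7% of the 3897. The limit of 60% was chosen after the values were seen. The highest shares were 73.3% at cyp-33C4, 70.3% at cyp-34A8, 67.3% at cyp-33C8 and 66.3% at both cyp-33C5 and the stronger summit of cyp-43A1. The cyp-43A1 window has 8 bases in such runs. The runs of C and T that the capitals show in the cyp-33C4 window make up 49 bases.

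Of the 24 P450 summits, 2 lay in peaks over tRNA genes (8.33%), against 2.28% of all promoter summits. The summit of cyp-14A4 had a signal of 74.4 and lay 500 bp inside the gene, in an intron and within a tRNA gene at chromosome X, 13283637 to 13283708, minus strand. Its ranks were 4551 in replicate 1 and 8812 in replicate 2. The weaker summit of cyp-43A1, of signal 64.3, lay 850 bp upstream within a tRNA gene at 5713652 to 5713724, plus strand, and the stronger one, of 66.1, lay 47 bp upstream outside it. Without peaks over tRNA genes, 23 P450 genes were bound, with cyp-14A4 lost, against 19.8% of all genes.

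P450 enzymes receive electrons from a reductase and cytochrome b5 and need heme, which C. elegans cannot make. Of 9 genes for these partners, 6 were bound (66.7%, interval 35.4% to 87.9%), against 20.2% of all genes and 24.2% of genes with a gene-class symbol. The strongest was cytb-5.1, which encodes a cytochrome b5, with a signal of 212.9 at 291 bp upstream. emb-8, the P450 reductase gene, had 107.6 at 906 bp upstream. The heme transport genes hrg-1 and hrg-3 had 156.4 and 126.8, hrg-7 had 115.9, and the heme exporter gene mrp-5 had 114.6. A further cytochrome b5 gene, cytb-5.2, the heme importer gene hrg-4 and vem-1 were not bound.

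A list of 17 genes of transcription factors and cofactors was taken as possible regulators of P450 and xenobiotic genes, a role not tested here. Of these, 12 were bound (70.6%, interval 46.9% to 86.7%). The share was 20.2% over all genes and 30.4% over genes with more than 1 annotated 5' end. The 3 strongest were the nuclear receptor gene nhr-48 at 683.7, the FOXO factor gene daf-16 at 503.4 and nhr-49, a nuclear receptor gene of fat metabolism, at 304.7. Some of these genes have many annotated 5' ends, with 7 for daf-16 and 6 for nhr-49, so the rule searches more windows there. ahr-1, the aryl hydrocarbon receptor gene, was not bound, nor were nhr-86, nhr-176, mdt-15 and sbp-1.

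Other detoxification families gave shares on both sides of that of the P450 genes, and the share over all genes was 20.2%. The UDP-glucuronosyltransferases, which conjugate sugar to oxidized compounds, had 29 of 67 bound (43.3%, interval 32.1% to 55.2%), with ugt-20 at 343.4, ugt-65 at 248.6 and a summit of 229.4 shared by ugt-9 and ugt-11. The glutathione S-transferases had 14 of 44 (31.8%, interval 20% to 46.6%), with gst-42 at 488.1, gst-20 at 319.1 and gst-27 at 221.9. Among 5 flavin monooxygenases, fmo-5 at 152.3 and fmo-2 at 144.2 were bound (40%). The efflux pumps of the P-glycoprotein family had 3 of 14 bound (21.4%), with pgp-1 at 223.3, pgp-9 at 92.3 and pgp-11 at 77.0. The MRP family had 3 of 8 (37.5%), with mrp-2 at 171.1, mrp-3 at 122.7 and mrp-5 at 114.6. The differences between these families were not tested, and the lists were chosen with earlier results of these data known.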

How the data were processed

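SMA-9 ChIP-seq was measured in 2 biological replicates of whole L2 larvae, which form 1 group, so conditions could not be contrasted. The lists hold no read counts. Depth is therefore unknown for each library, and precision is limited by having 2 replicates. Per the file headers, a replicate's list comes from its alignments plus 1 other file, the pooled list joins the replicates, and the IDR list was made from those lists. Neither aligner, caller nor IDR cutoff is given in the sources used here. The peak signal is a score of the caller as deposited by the authors, with no stated scale. The −log10 q-value deposited by the authors is capped, and all 7065 IDR peaks had the same value of 4.17, so it ranked nothing. The 4 lists on ce11 were used, and those on ce10 were not used here.

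Genes and 5' ends came from the Ensembl release 115 annotation of WBcel235, which is ce11, and pseudogenes and sequence from the RefSeq genome of the same assembly. Worm transcripts are often trans-spliced, so distances refer to annotated ends and not to initiation sites. Locations in introns, exons and between genes refer to protein-coding genes. The calling step was tested on simulated summits. Python 3.11.15 with pandas 2.3.3, numpy 2.4.6, scipy 1.17.1 and Biopython 1.88 was used. Intervals are Wilson intervals at 95%, and a count of 0 was limited at 3 counts. Named genes were all bound members, all unbound members with an IDR peak within 3000 bp or bound under an alternative setting, by name or by count, and of each partner list the bound members or the 3 of highest signal. The members and the lists were chosen with earlier results of these data known, and no set test was run. Alternatives changed the window, the peak list, the 5' ends counted, the overlap rule and the motif window, and left out each replicate.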

Additional observations from a re-analysis of the deposited data

How the results depend on the processing

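The count of 24 bound P450 genes was 23 with a window of 500 bp (15.4% of all genes), 31 with 2000 bp (27.6%) and 22 on the upstream side alone (18.1%). Each percent in brackets after such a count is the share of all protein-coding genes under that setting, not of the 74 P450 genes. The 3532 IDR peaks of highest signal gave 12 (11.8% of all genes), and all pooled calls gave 47 of 74 (47.1% of all genes). Without replicate 1 the count was 21 (20.2%), with 20 of the 24 kept and cyp-36A1 added. Without replicate 2 it was 23 (20%), with 20 of the 24 kept and cyp-13A6, cyp-13A7 and cyp-33C12 added. Chosen after seeing the data, protein-coding transcripts alone gave 24 (20.2%), and the nearest 5' end alone gave 23 without cyp-33C6 (16.6%). Leaving out peaks over tRNA genes, chosen likewise, gave 23 (19.8%). The median signal of 110.2 was 104.3 with 500 bp, 111.3 with 2000 bp and 96.2 with each distinct summit counted once. The share of summits called in both replicates fell from 100% to 66.7% with the strongest calls of each. TGATAA was in 5 windows that reach 50 bp from the summit (20.8%, against 20.3% of all IDR windows). It was in 3 that reach 25 bp (12.5% against 10.6%) and in 10 that reach 100 bp (41.7% against 31%). GCGTG was in 3 at 50 bp (12.5% against 15.6%) and 5 at 100 bp (20.8% against 23.6%). The cause of these changes was not tested, except that longer windows hold more letters and stricter lists fewer peaks. No paired analysis was possible because there was 1 group and no test. No depth per library was known, so a gene without a summit is not shown to lack binding.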
